A study of Rattus norvegicus with 6 samples.

Results

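The interleukin-6 family comprises cytokines that signal through the shared receptor chain gp130, encoded by Il6st. The genes described here are the ligands Il6, Lif, Osm and Il11 and the receptor genes Il6r, Il11ra1, Il6st, Lifr and Osmr, taken by gene name from the array, with every probe of each gene. All 9 genes were present, out of 35071 distinct gene names on the array, and they were covered by 11 of 41012 probes. Il6st had 3 probes and every other gene had 1. Of these, 9 probes of 7 genes stood well above background on 3 or more of the 6 arrays and entered the test, whereas the probes for Osm and Il11 were too dim.

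Expression was measured in synovial tissue of hind-leg ankle joints from male rats aged 8 weeks with adjuvant arthritis (AA), in which injected Freund's complete adjuvant leads to inflamed joints. Animals of both groups received 0.1 ml of adjuvant intraperitoneally each day for 18 days. The TP group (3 arrays) was given triptolide, a compound from the thunder god vine, at 0.4 mg/kg daily for 14 days, and the AA group (3 arrays) an equivalent amount of saline. No healthy group was analysed here, so the values compare treated with untreated arthritis only. The strain is not given in the sources used here, and the labels number the replicates without saying whether each was a separate animal. P-values therefore refer only to the spread among the arrays, which may be technical.

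Interleukin-6 and interleukin-11 first bind their own receptors, Il6r and Il11ra1, and the complex then brings gp130 chains together. Leukaemia inhibitory factor, encoded by Lif, signals through a pair of Lifr and gp130, and oncostatin M, encoded by Osm, through a pair of Osmr and gp130. JAK kinases bound to these chains phosphorylate the transcription factor STAT3, which among other genes induces Socs3, an inhibitor that binds gp130 and ends the signal. In inflamed joints, interleukin-6 is known as a product of synovial fibroblasts and macrophages, and its receptor is a drug target in human rheumatoid arthritis.

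What each array reported for a gene was the binding of labelled RNA to a 60-base probe. The probes of the 4 ligands, whose signals were the weakest to interpret, and of the 3 signalling chains follow, 5′ to 3′ as deposited, with no base set apart because the whole probe hybridises.
Il6: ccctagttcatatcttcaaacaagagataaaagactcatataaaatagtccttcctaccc
Lif: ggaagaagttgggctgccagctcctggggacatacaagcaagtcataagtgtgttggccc
Osm: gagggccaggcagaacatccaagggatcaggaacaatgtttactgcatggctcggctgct
Il11: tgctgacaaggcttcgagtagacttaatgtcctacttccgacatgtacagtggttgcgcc
Il6st: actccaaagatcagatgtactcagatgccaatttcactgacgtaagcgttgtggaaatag
Lifr: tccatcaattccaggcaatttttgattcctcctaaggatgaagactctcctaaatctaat
Osmr: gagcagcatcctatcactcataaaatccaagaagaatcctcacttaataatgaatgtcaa

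Per the file headers, positions are on rat build rn4. The Il6 probe lies at chr4:457279-458563 on the minus strand and the Osmr probe at chr2:56081199-56081943 on the minus strand. Their 60 bases are placed over 1285 and 745 bases of genome, so that each crosses at least 1 intron. The other probes lie in 1 uninterrupted stretch each. These are chr14:84890560-84890619 for Lif, chr14:84859737-84859796 for Osm, chr1:67788392-67788451 for Il11 and chr2:56477054-56477113 for Lifr, all on the plus strand. The Il6st probe printed above, at chr2:43833273-43833332 on the plus strand, begins at base 2042 of its transcript. The other Il6st probes lie further along the same transcript, at chr2:43836188-43836247 and chr2:43836315-43836374. Il6r was measured at chr2:182078323-182078382 on the minus strand and Il11ra1 at chr5:59199475-59199534 on the plus strand. Which isoforms of a gene these probes detect, such as membrane-bound and soluble forms of a receptor, was not checked. Signal is therefore not assigned to any form.

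Each array held 45018 spots, 43379 of them not controls. Of the spots that were not controls, 25850 to 28249 were well above background and none was saturated. Levels below are log2 intensities relative to the array's own 75th percentile, which is 0 on this scale, and differences are TP minus AA on the same scale. Across all 25777 tested probes, no probe passed an adjusted p of 0.05 in limma (0% of those tested, lowest adjusted p = 0.344). At an unadjusted p of 0.05, 835 probes (3.24%) passed, 517 with a higher and 318 with a lower level in TP. The groups did not overlap for 2226 probes (8.64%). Slide 1 held TP 1 and AA 1 to 3, and slide 2 held TP 2 and TP 3, so slide and group are largely confounded. The markers Prg4 and Cdh11 of synovial fibroblasts were well above background on all 6 arrays, and all 15 listed fibroblast markers were tested. Their mean, relative to its own 6-array mean, was -0.075, -0.43 and 0.093 on TP 1 to 3, against 0.29, -0.37 and 0.49 on AA 1 to 3, so that TP 2 and AA 2 were the lowest arrays. Single markers differed in this, Prg4 being low on TP 2 (3.52, against 6.55 and 6.74 on TP 1 and TP 3) while Cdh11 was not (-1.80, against -2.54 and -2.37). Skeletal muscle markers (14 of 16 listed genes tested) averaged 8.11 log2 units above their own 6-array mean on AA 2. Nerve markers (7 of 7) averaged 2.73 above theirs on TP 2, and smooth muscle markers (6 of 7) averaged 2.51 above. In bulk tissue of this kind, fewer cells of a type and less RNA per cell cannot be told apart.

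None of the 7 tested IL-6 family genes differed between TP and AA beyond the spread of the arrays. None passed the adjusted threshold (adjusted p from 0.994 to 0.999) or an unadjusted p of 0.05, against 0% and 3.24% of all tested probes. In none did the 2 groups separate without overlap, against 8.64% of all tested probes. All 7 point differences were above 0, with a median of 0.14, whereas the median over all tested probes was 0.023 and 53.9% of all tested probes lay above 0. That count of 7 depended on the processing and on single arrays. It was 5 with scaling to the array median, 4 with another background correction (normexp), 5 without TP 1, 4 without TP 2 or without AA 2, 3 with slide as a block and 3 with array weights.

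**Figure D1:**
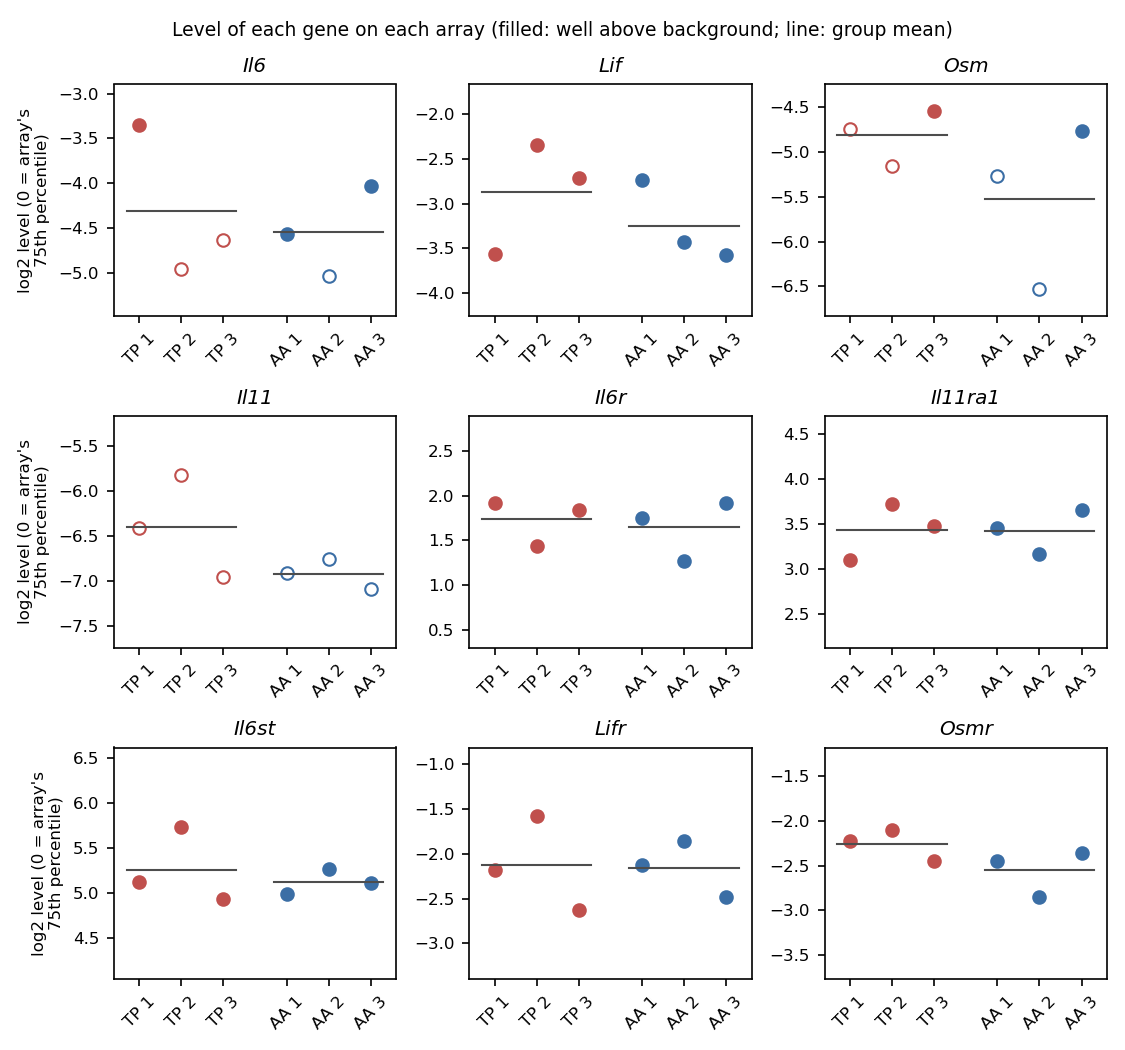
Log2 level of each of the 9 genes (vertical axis, 0 is the array's 75th percentile; every panel covers the same height) on each TP and AA array, with Il6st by its brightest probe. Filled circles were well above background, open circles were not, and lines are group means of 3 arrays; TP and AA points overlap for all 7 tested genes.

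Among the ligands, Il6 encodes interleukin-6 itself and was near the detection limit in arthritic synovium with or without triptolide. Its processed intensity was 26.6, 11.2 and 18.5 on TP 1 to 3, against 12.0, 9.17 and 19.7 on AA 1 to 3. The corresponding levels were -3.35, -4.96 and -4.64 in TP and -4.57, -5.03 and -4.03 in AA. TP 1 was the highest array and AA 2 the lowest, with the other TP arrays inside the range of AA. By majority of its spots, the probe was well above background on TP 1 and on AA 1 and AA 3.

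Il6 was printed at 10 spots per array, which gives a technical error for each array. The SD over spots was 0.12, 0.28 and 0.33 on TP 1 to 3 and 0.23, 0.34 and 0.17 on AA 1 to 3, after leaving out outlier spots. All 9 spots used on TP 1, none of 9 on TP 2 and 4 of 9 on TP 3 were well above background, against 7 of 10 on AA 1, none of 9 on AA 2 and all 9 on AA 3. The distance between TP 1 and the other TP arrays therefore exceeded the spread of spots within any array.

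**Figure D2:**
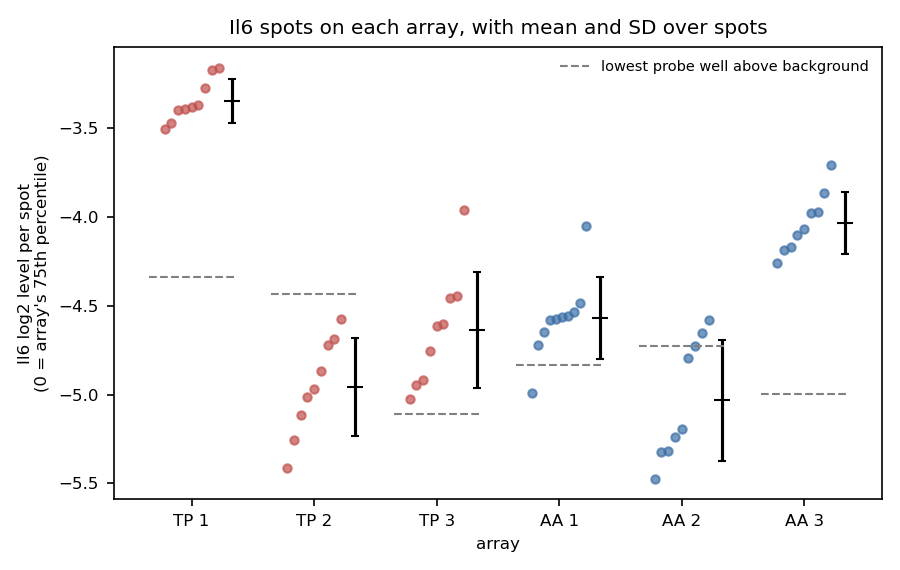
Log2 level of every Il6 spot used (vertical axis, 0 is the array's 75th percentile) on each TP and AA array, with black bars for the mean and SD over spots and dashed lines for the lowest level among probes well above background on that array. All 9 spots of TP 1 lie above every spot of the other arrays, and the spots of TP 2 lie below their dashed line.

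Over the arrays, Il6 averaged -4.31 ± 0.85 in TP and -4.55 ± 0.50 in AA (SD, n = 3 each). The difference was 0.23 (SE 0.47, adjusted p = 0.994), a 1.17-fold ratio with a 95% interval of 0.53 to 2.60. Its standard error lay at the 89.3rd percentile of all tested probes. The difference was -0.25 without TP 1 and -0.011 without AA 2. With slide as a block, where TP 1 alone stands for treatment, it was 1.20 (SE 0.42) and passed an unadjusted p of 0.05 but not the adjusted threshold (adjusted p = 1.000). Within slide 1 it was 1.20 (SE 0.45, adjusted p = 0.991) and passed neither. Markers of neutrophils (9 of 13 listed genes tested, with Cxcr2, Mmp8 and Fpr1 well above background on 0 arrays) were likewise highest on TP 1 and lowest on AA 2. Their mean stood at 0.74, -0.40 and 0.33 in TP and at -0.33, -0.56 and 0.22 in AA, relative to the mean of 6 arrays. The part of neutrophils in the Il6 values was not tested.

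Lif encodes leukaemia inhibitory factor and was well above background on all 6 arrays, but at low intensity. Its intensity was 22.9, 67.1 and 68.5 on TP 1 to 3, against 42.2, 27.2 and 26.9 on AA 1 to 3. On TP 1 it was below that of Il6 (26.6). The level of Lif was -3.56, -2.35 and -2.71 on TP 1 to 3, against -2.74, -3.43 and -3.58 on AA 1 to 3. TP 2 and TP 3 were the highest arrays, but TP 1 was lower than AA 1 and AA 2, so the groups overlapped. The difference was 0.38 (SE 0.38, adjusted p = 0.994), a 1.30-fold ratio with a 95% interval of 0.69 to 2.44. With a slide block and in slide 1 alone, the difference was -0.31, and with normexp background correction it was -0.015. It was 0.72 without TP 1 and 0.11 without TP 2.

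Osm encodes oncostatin M, a cytokine of activated leukocytes, and was well above background on TP 3 and AA 3 only. Its intensity was 10.1, 9.57 and 19.2 on TP 1 to 3, against 7.28, 3.16 and 11.8 on AA 1 to 3. The lowest intensity among probes well above background was 13.0 to 15.8 on the TP arrays and 9.88 to 11.1 on the AA arrays. The scanner software gave the Osm spots an error of 19.8% to 74.5% of the signal. The values on the other 4 arrays are at background, so no difference is given. The 2 measured arrays, 1 in each group, had levels of -4.55 on TP 3 and -4.77 on AA 3.

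Il11 encodes interleukin-11 and was not well above background on any array. Its intensity was 3.17, 6.07 and 3.60 on TP 1 to 3, against 2.35, 2.70 and 2.35 on AA 1 to 3, with a scanner error of 58.4% to 100.0%. All 6 values lay below the lowest intensity of probes well above background on their arrays, so no fold is given and a difference was not detectable at these signals.

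The ligand-binding receptor chains were clearly detected. Il6r encodes the receptor that binds interleukin-6 and gives its specificity, and its level was 1.92, 1.44 and 1.84 on TP 1 to 3, against 1.75, 1.27 and 1.92 on AA 1 to 3. The lowest arrays were TP 2 and AA 2, and the other 4 lay between 1.75 and 1.92. The difference was 0.087 (SE 0.23, adjusted p = 0.995), a 1.06-fold ratio with a 95% interval of 0.72 to 1.57. It was 0.27 with a slide block and in slide 1 alone, -0.0063 without TP 1 and -0.10 without AA 2. The macrophage markers (11 of 12 listed genes tested, with Marco well above background on 0 arrays) were also lowest on TP 2 and AA 2, at 0.13, -0.46 and 0.41 in TP and 0.067, -0.40 and 0.25 in AA. T and NK cell markers (13 of 13) had the same pair of low arrays, at 0.41, -0.94 and 0.54 in TP and 0.26, -0.67 and 0.40 in AA. So did the fibroblast and neutrophil lists given above, so that this order of arrays was shared by several cell types. Their part in the Il6r values was not tested.

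Il11ra1, the receptor for interleukin-11, had a level of 3.10, 3.73 and 3.48 on TP 1 to 3, against 3.46, 3.16 and 3.66 on AA 1 to 3. TP arrays held both the highest and the lowest value, with the AA arrays between them. The difference was 0.011 (SE 0.23, adjusted p = 0.999), with a 95% interval on the fold of 0.69 to 1.47, and it was -0.33 with a slide block and in slide 1 alone. Without TP 2, TP 3 or AA 2 the difference was -0.13, -0.013 and -0.12. The receptor's probe was thus well above background on all 6 arrays, and that of its ligand on none.

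The shared chain gp130 was measured by 3 probes of Il6st, and all 3 were highest on TP 2. The brightest read 5.11, 5.73 and 4.93 on TP 1 to 3, against 4.99, 5.27 and 5.10 on AA 1 to 3. The probe printed above read 1.58, 2.12 and 1.22 in TP and 1.43, 1.59 and 1.43 in AA. The probe nearest the transcript's 3′ end read -0.54, 0.37 and -0.64 in TP and -0.72, -0.63 and -0.44 in AA. On every probe the TP arrays spanned the AA values or overlapped them.

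The differences of the 3 probes were 0.14 (SE 0.24) for the brightest, 0.16 (SE 0.25) for the one printed above and 0.33 (SE 0.30) for the last, each with an adjusted p of 0.994. For the brightest, the ratio was 1.10-fold with a 95% interval of 0.73 to 1.65. Without TP 2 its difference was -0.098, and with a slide block or in slide 1 alone it was -0.0048.

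**Figure D3:**
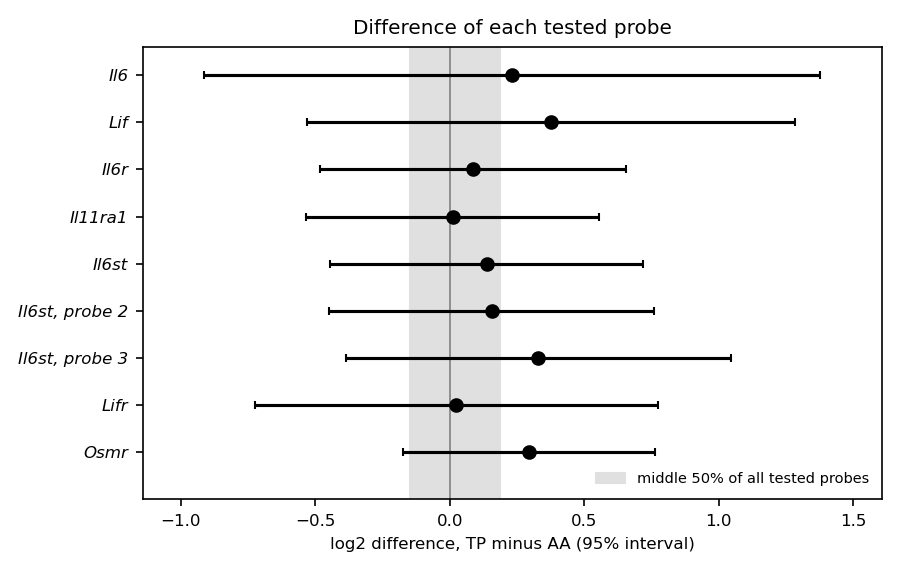
Log2 difference, TP minus AA (horizontal axis), of the 9 tested probes, with 95% intervals from limma; Il6st probes are ordered by brightness, and the grey band holds the middle 50% of all tested probes. Every interval includes 0, and the interval of Il6 is the widest.

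Lifr and Osmr encode the chains that pair with gp130 for leukaemia inhibitory factor and oncostatin M. Lifr read -2.18, -1.58 and -2.63 on TP 1 to 3, against -2.12, -1.86 and -2.48 on AA 1 to 3. The AA values lay within the range of TP, whose extremes were TP 2 and TP 3. The difference was 0.024 (SE 0.31, adjusted p = 0.999), with a 95% interval on the fold of 0.61 to 1.71, and it was -0.022 with a slide block and in slide 1 alone, -0.25 without TP 2 and -0.14 without AA 3.

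Osmr read -2.22, -2.10 and -2.45 on TP 1 to 3, against -2.45, -2.85 and -2.36 on AA 1 to 3. TP 2 and TP 1 were the highest arrays and AA 2 the lowest, while TP 3 lay below AA 3. Its difference of 0.29 (SE 0.19, adjusted p = 0.994) had the lowest unadjusted p of the 7 genes, a 1.23-fold ratio with a 95% interval of 0.89 to 1.69. The difference was above 0 under all 19 alternatives, from 0.026 (array weights) to 0.39, with 0.15 without AA 2 and 0.076 with normexp, and was 0.33 with a slide block and in slide 1 alone, but under none of them did it pass an unadjusted p of 0.05 (lowest adjusted p = 0.771).

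Of the 7 tested genes, 5 (Lif, Il6st, Lifr, Osmr and Il11ra1) were highest on TP 2 and 3 (Il6, Il6r and Osmr) lowest on AA 2. The median distance of the 7 genes from their 6-array means was -0.034, 0.30 and -0.045 on TP 1 to 3, against 0.019, -0.37 and 0.047 on AA 1 to 3. TP 2 was thus the high array and AA 2 the low one, and the remaining 4 were close together. Nerve markers stood at -1.11, 2.73 and -1.39 on the TP arrays and 0.014, -0.47 and 0.23 on the AA arrays, and smooth muscle markers at -0.86, 2.51 and -1.25 in TP and -0.60, 0.30 and -0.089 in AA. Endothelial markers (10 of 10 tested) stood at -0.19, 0.81 and -0.35 in TP and 0.0078, -0.24 and -0.046 in AA. Skeletal muscle markers stood at 1.03, -2.91 and 1.67 in TP and -3.87, 8.11 and -4.04 in AA. The part of these tissues in the values was not tested. TP 2 and AA 2 were then both left out, an alternative chosen after seeing the data. The median difference of the 7 genes was 0.025, with 4 of 7 above 0. These were Il6 (0.31), Osmr (0.069), Il6r (0.044) and Lif (0.025), while Il6st (-0.024), Lifr (-0.10) and Il11ra1 (-0.27) were below 0.

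**Figure D4:**
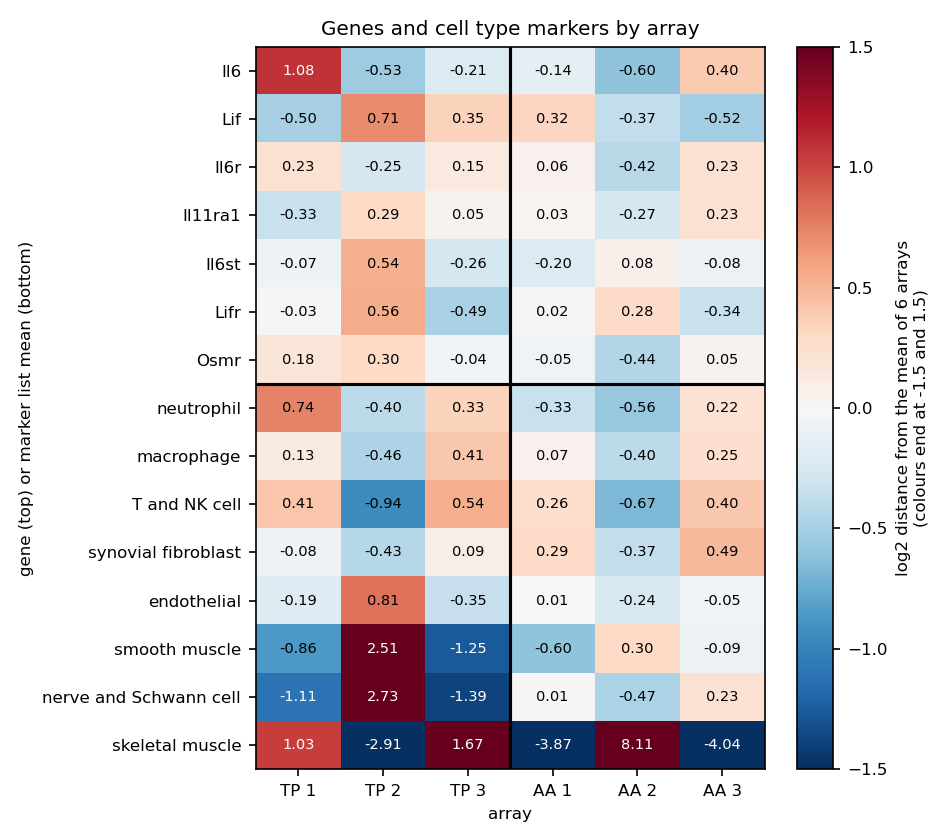
Log2 distance from the mean of the 6 arrays for the 7 tested genes (upper rows) and for the mean of each cell type's marker list (lower rows), by TP and AA array; colours end at -1.5 and 1.5 and the numbers give the full values. TP 2 is high for Lif, Il6st and Lifr as well as for the nerve, smooth muscle and endothelial lists, and AA 2 is low for Il6 and Osmr and high for skeletal muscle.

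The other genes of the pathway were taken from 4 lists of 50 genes in all, of which 47 were on the array and 45 were tested. None passed the adjusted threshold (lowest adjusted p = 0.994) or an unadjusted p of 0.05, against 0% and 3.24% of all tested probes. The count at an unadjusted p of 0.05 was not stable. It was 9 of 45 with slide as a block (3.77% of all probes) and 12 within slide 1 (5.03%), where TP 1 alone stands for treatment, 7 without TP 2 (6.43%), 7 with array weights (16.9%) and 8 for TP 1 and 3 against AA 1 and 3 (11.2%). Of the 45 differences, 37 were above 0 and 8 below, with a median of 0.24 beside 0.023 over all tested probes. The groups did not overlap for 5 of 45 genes, all of them with higher TP values, beside 8.64% of all tested probes in either direction. Of those 2226 probes among the 25777 tested, 1229 had higher and 997 lower TP values. The 5 genes, named after their values were seen, were Stat3, Stat5a, Bcl3, Bcl2l1 and Hp.

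In the list of other ligands and receptors, which also held the interleukin-12 receptor chain Il12rb1, 5 of 7 tested genes had a difference above 0. Their median was 0.26. That median was -0.017, with 3 of 7 above 0, without TP 2, and -0.15 with slide as a block. With the filter at all 6 arrays, which left out Il12rb1, 4 of 6 genes were above 0, with a median of 0.14. Il12rb1, a receptor chain shared by interleukin-12 and interleukin-23, read -3.72, -5.28 and -4.10 in TP and -4.65, -5.97 and -4.25 in AA, a difference of 0.59 (SE 0.57). On TP 2 and AA 2 this probe lay below the lowest level of probes well above background (-4.43 and -4.73), and the difference was -0.033 with normexp, 0.083 without AA 2 and 1.24 with slide as a block. Clcf1, a ligand for the ciliary neurotrophic factor receptor, read -0.66, -0.28 and -0.63 in TP and -0.60, -1.25 and -0.48 in AA, a difference of 0.26 (SE 0.25). It was 0.019 without AA 2, -0.035 with array weights and -0.10 for TP 1 and 3 against AA 1 and 3. Cntf, ciliary neurotrophic factor, a product of Schwann cells, was highest on TP 2, where the nerve, smooth muscle and endothelial lists were also highest. It read -0.14, 2.79 and -0.49 in TP, against 0.28, -0.053 and 0.64 in AA, and was named after its values were seen. The part of these tissues in the Cntf values was not tested.

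Among the JAK-STAT transducers, 7 of 10 genes had a difference above 0, with a median of 0.22 (0.049 without TP 1). Jak1, the kinase on which gp130 signalling chiefly relies, read 2.20, 2.54 and 2.06 in TP and 1.98, 1.83 and 2.18 in AA, a difference of 0.27 (SE 0.19), which was 0.13 without TP 2 and 0.046 with array weights. Jak2, a second kinase bound by gp130, read 3.16, 2.10 and 2.51 in TP and 2.27, 2.20 and 2.50 in AA. Its difference was 0.27 (SE 0.29), and it was -0.018 without TP 1 and 0.51 without TP 2. With slide as a block, where TP 1 alone stands for treatment, it was 0.84. Stat3, the main transcription factor of the pathway, read 2.88, 2.51 and 2.48 in TP and 2.38, 2.38 and 2.45 in AA. Every TP array lay above every AA array, TP 3 by a margin smaller than the spread of either group. The difference was 0.22 (SE 0.17, adjusted p = 0.994), and it was 0.093 without TP 1. With slide as a block, where again TP 1 alone stands for treatment, it was 0.48.

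Among the inhibitors, 7 of 9 genes had a difference above 0, with a median of 0.15. Socs3 read -0.87, -1.86 and -1.62 in TP and -1.86, -2.21 and -1.57 in AA. Like Il6, it was highest on TP 1 and lowest on AA 2, and the groups overlapped. The difference was 0.43 (SE 0.31), which was 0.14 without TP 1 and 1.01 with slide as a block, where TP 1 alone stands for treatment. Socs2, an inhibitor of growth hormone signalling, read -1.64, -1.49 and -1.65 in TP and -2.07, -1.54 and -1.94 in AA, a difference of 0.25 (SE 0.18). It was 0.14 without AA 1, 0.41 without AA 2 and 0.045 with normexp. Socs2 passed an unadjusted limma p of 0.05 without AA 2, with array weights and for TP 1 and 3 against AA 1 and 3. The adjusted threshold was not passed under any alternative (lowest adjusted p = 0.195 for Socs2).

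Among target genes of STAT3 and gp130, 18 of 19 had a difference above 0, with a median of 0.27. The count was 14 of 19 without TP 1 and likewise without AA 2, with medians of 0.14 and 0.20. Without TP 2 the median was 0.50, and with a slide block or in slide 1 alone it was 0.82. The neutrophil markers given beside Il6 averaged 0.45 higher in TP than in AA and were likewise highest on TP 1 and lowest on AA 2, and their part in these values was not tested. Icam1, an adhesion molecule for leukocytes, read 4.47, 3.43 and 4.07 in TP and 3.35, 2.88 and 3.70 in AA, with TP 2 inside the range of AA. Its difference was 0.68 (SE 0.33), and it was 0.44 without TP 1 and 0.46 without AA 2. With slide as a block, where TP 1 alone stands for treatment, it was 1.16. Leaving aside the slide block and slide 1 alone, Icam1 passed an unadjusted limma p of 0.05 with normexp under either scaling. Icam1 passed likewise without TP 2 and with a replicate block. It also passed with array weights and for TP 1 and 3 against AA 1 and 3, but never the adjusted threshold (lowest adjusted p = 0.187). Fos, an immediate early gene of the AP-1 complex, was the exception in sign. It read 0.46, 0.012 and 0.95 in TP and 1.32, 0.74 and 1.55 in AA, a difference of -0.73 (SE 0.32, adjusted p = 0.994) that stayed below 0 under all 19 alternatives. Leaving out each array in turn gave -0.97 to -0.50 for Fos. An unadjusted limma p of 0.05 was passed by Fos without TP 3, without AA 2 and with normexp under either scaling. Fos also passed it with a replicate block, with array weights and for TP 1 and 3 against AA 1 and 3. The adjusted threshold was passed under no alternative (lowest adjusted p = 0.231 for Fos). Many of these targets are also induced by other cytokines, so their list is not specific to the family.

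**Figure D5:**
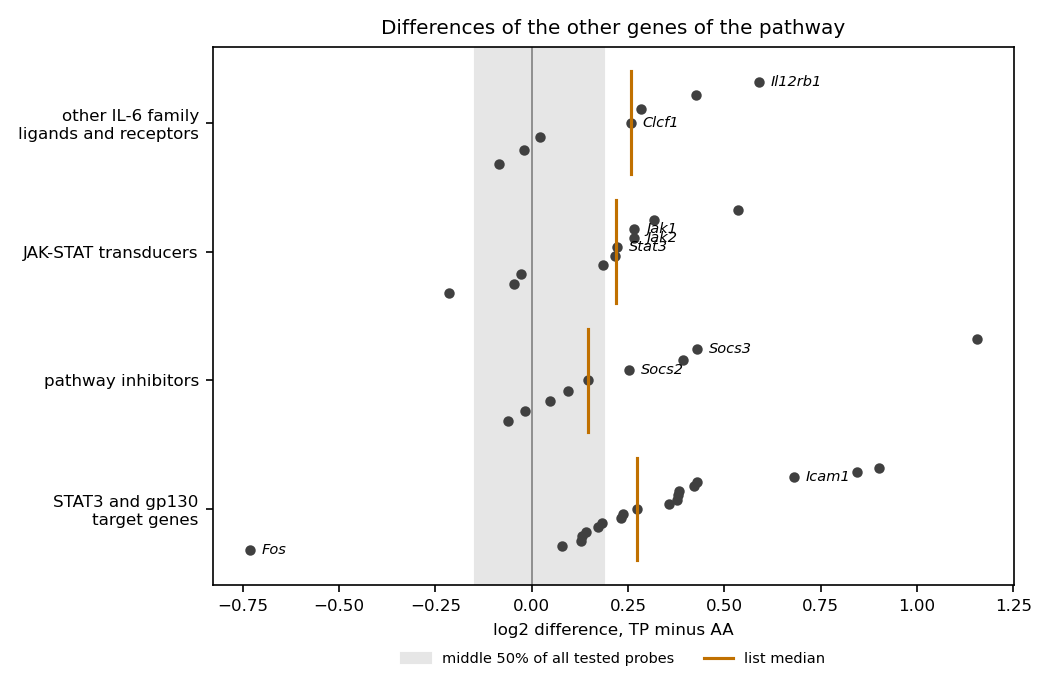
Log2 difference, TP minus AA (horizontal axis), of the 45 tested pathway genes by list, with orange lines for list medians of 0.26, 0.22, 0.15 and 0.27 from top to bottom; the grey band holds the middle 50% of all tested probes. Named points are the genes given values in the text by rule, and Fos lies alone on the left.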

How the data were processed

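Per the file headers, the deposited scanner files hold spot intensity with background subtracted and trends removed within each array by Agilent Feature Extraction 10.7.3.1 (9.1 in the submitters' processing notes). Nothing was normalized between arrays. Per the labels' protocols, Cy3-labelled RNA was made from 0.5 ug of total RNA.

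After dropping control and outlier spots, log2 intensity was taken, the array's log2 75th percentile (intensity 270.1 to 447.9) was subtracted and spots of a probe were averaged. A probe counted as well above background on an array if at least 50% of its spots were, and was tested if so on at least 3 of 6 arrays. Limma 3.58.1 (R 4.3.3, lmFit and eBayes) gave TP minus AA, with Benjamini-Hochberg adjustment over all tested probes. The scripts were tested on simulated data. The number of arrays limits the precision, and an exact two-sided permutation test of 3 against 3 cannot go below p = 0.1, so none was used.

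The brightest tested probe stands for a gene. Members, lists and rules were chosen with earlier results of these data known. Named pathway genes are Jak1, Jak2, Stat3 and Socs3 and the 2 smallest unadjusted p per list. A rule naming genes of like pattern applied to members spanning over 2 log2 units, and 0 did. Accessions of 10 of 11 member probes were in the RefSeq table. The alternatives tried were 3 other scalings, normexp background correction (offset 50) with either scaling, other filters on dim probes, each array left out, slide or replicate number as a block, slide 1 alone, a muscle covariate and array weights.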

Additional observations from a re-analysis of the deposited data

How the results depend on the processing

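No IL-6 family gene and no pathway gene passed the adjusted threshold under any alternative run. The count of family genes at an unadjusted p of 0.05 was 0 except with slide as a block, where it was 1 (Il6). That of the 45 pathway genes, 0 as reported, ranged up to 12 (within slide 1). Over all probes, the count at an unadjusted p of 0.05 (835) was 1758 with no filter on dim probes, where more probes were tested, 1296 within slide 1, 1693 with a skeletal muscle covariate, 4345 with array weights and 2879 for TP 1 and 3 against AA 1 and 3, an alternative chosen after seeing the data. It ranged from 617 to 1656 when each array was left out in turn, the highest without TP 2. The count past the adjusted threshold (0) was 1 with array weights and 24 for TP 1 and 3 against AA 1 and 3. Array weights gave TP 2 a weight of 0.24 and AA 2 a weight of 0.20, the lowest of the 6.

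Several differences changed sign, and the cause was not tested. With the array median they were -0.010 for Lifr and -0.024 for Il11ra1. With normexp they were -0.093 for Il6, -0.015 for Lif and -0.12 for Lifr, and with normexp and quantile normalization -0.070 for Lifr. With a slide block and in slide 1 alone they were -0.0048 for Il6st, -0.31 for Lif, -0.022 for Lifr and -0.33 for Il11ra1. With array weights they were -0.10 for Il6, -0.059 for Il6st, -0.28 for Lifr and -0.078 for Il11ra1. For TP 1 and 3 against AA 1 and 3 they were -0.024 for Il6st, -0.10 for Lifr and -0.27 for Il11ra1. Leaving out each array in turn gave -0.25 to 0.55 for Il6, -0.10 to 0.23 for Il6r, -0.098 to 0.30 for Il6st, 0.11 to 0.72 for Lif, -0.25 to 0.27 for Lifr, 0.15 to 0.39 for Osmr and -0.13 to 0.18 for Il11ra1.

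Same-numbered TP and AA arrays did not deviate together (r = -0.16, -0.13 and 0.00083 over 25772 probes), so the numbers were not taken to pair the samples. With a replicate block, 1066 probes passed an unadjusted p of 0.05 and 0 the adjusted threshold, with 0 family genes at either and a family median of 0.14. With the filter at all 6 arrays Il6 has no value, and the deposited table of processed values was not run as an alternative because it holds 0 member probes. Signal over background limits Il6, Osm and Il11 most.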
